A study of Homo sapiens with 12 samples.

Results

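The polyadenylated replacement histone variants described here were 6 genes: H2AZ1 and H2AZ2, which encode the histone H2A.Z, MACROH2A1, which encodes macroH2A1, H3-3A and H3-3B, which encode histone H3.3, and H1-10, which encodes the linker histone H1.10 and was formerly called H1FX. They were found by symbol in the annotation of the array, with older symbols accepted, which gave 18 of its 22277 probe sets. A probe set is a group of short oligonucleotides that together give 1 signal. Of the 18, 10 were annotated to a member alone: 2 to H2AZ1, 3 to H2AZ2, 3 to MACROH2A1, 1 to H3-3A and 1 to H1-10. The other 8 named H3-3A and H3-3B together, 4 of them with the pseudogene H3P6 and 4 with the microRNA gene MIR4738, so that H3-3B had 0 probe sets of its own and its messenger was seen jointly with that of H3-3A. All 18 lay above the filter on dim signals, and 5 of the 6 members entered the test of 7178 genes, while 11963 genes had their own probe set.

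RNA was collected from MDA-MB-231, an established human cell line from a triple-negative breast cancer, by precipitating eIF4E with its antibody, or with IgG as the control, and 1 Affymetrix array was run for each precipitate. The 4 groups of 3 arrays were IgG from untreated cells, IgG from cells given 2 Gy of X-rays and collected at 6 h, eIF4E from untreated cells, and eIF4E from irradiated cells. All 4 shared the cell line and medium, and no other agent or genetic change is named in the labels. Replicates are called biological, without a statement of what was repeated, so p-values measure the spread between these arrays. No array of unprecipitated RNA was among the 12, so each antibody difference compares a precipitate with the IgG background and not with the amount of a messenger in the cell.

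Most histone messengers are made in S phase from clustered genes and are not polyadenylated, ending in a stem-loop instead. Replacement variants are made throughout the cell cycle, and their messengers are spliced in most cases and polyadenylated like those of other genes. H2A.Z marks promoters and enhancers, H3.3 is laid down in transcribed chromatin and at telomeres outside replication, macroH2A1 carries a large extra domain and is known from silenced chromatin, and H1.10 is a linker histone that binds where DNA enters and leaves the nucleosome. eIF4E binds the cap at the 5′ end of messengers and brings them to the ribosome, and messengers that begin with a cytosine followed by a run of pyrimidines, the TOP messengers, are the textbook class controlled through the cap.

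Since eIF4E binds at the cap, the annotated starts of 5 messengers are given with 40 bases before and 20 from the start, as RefSeq places them on GRCh38.p14. Capitals mark the first 5 bases of the messenger, which lie next to the cap, and a TATAAA element where 1 is within the 40 bases before. H1-10 and H2AZ2 are shown because they read higher in eIF4E than in IgG in the gene test. For H2AZ2 this held for the probe set used there but not for its others. H2AZ1 is shown because it encodes nearly the same protein as H2AZ2. The H3.3 genes are shown because they encode an identical protein from messengers with different starts.
H1-10, chr3:129316267-129316326, minus strand: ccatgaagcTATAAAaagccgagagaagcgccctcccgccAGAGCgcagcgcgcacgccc
H2AZ2, chr7:44848068-44848127, minus strand: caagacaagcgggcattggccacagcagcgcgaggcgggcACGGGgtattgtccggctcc
H2AZ1, chr4:99950256-99950315, minus strand: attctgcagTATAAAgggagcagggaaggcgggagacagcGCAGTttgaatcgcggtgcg
H3-3A, chr1:226062676-226062735, plus strand: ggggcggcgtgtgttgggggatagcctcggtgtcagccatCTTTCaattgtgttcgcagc
H3-3B, chr17:75779760-75779819, minus strand: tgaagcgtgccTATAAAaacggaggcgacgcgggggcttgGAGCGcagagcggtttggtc

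The 6 members had 10 annotated starts, of which H3-3A had 4 and MACROH2A1 had 2. The H3-3A start printed here was the member start that began with C and 4 further pyrimidines, a form found at 1429 of 35116 starts in the RefSeq table (4.07%). Of the first 5 bases, 1 was a pyrimidine at H1-10, H2AZ2 and H3-3B and 2 were at H2AZ1. The other H3-3A starts, not printed, had 2 or 3, and both MACROH2A1 starts had 3. TATAAA on the strand of the gene lay 31 bases before the starts of H1-10 and H2AZ1 and 29 before that of H3-3B, against 2.44% of all starts. CCAAT on either strand within 250 bases before the start, the site of NF-Y in many histone promoters, was present at 7 of the 10 starts, in 5 genes, against 32.0% of all starts; the H1-10 window did not hold these letters. GC made up 70.0% of the first 50 bases from the start in H1-10, 76.0% in H2AZ2, 58.0% in H2AZ1, 62.0% in H3-3B and 62.0% to 86.0% at the H3-3A starts. A match to such letters describes the sequence only, and which start these cells used was not measured.

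The arrays of each antibody differed in control measures whatever the treatment. The probe set for Alu repeats, which are common in introns, read 36876 to 53246 in IgG and 13482 to 18476 in eIF4E, and the 3′ to 5′ signal ratio of actin was 2.96 to 5.38 in IgG and 1.33 to 1.53 in eIF4E. Log2 signals correlated at 0.956 to 0.986 within groups. Of 7 genes known to be expressed in MDA-MB-231, 7 were above the filter; of 6 known to be low or absent there, GATA3 was above it, at 603 to 1466, which goes against that list. Of 17 measured genes of liver, leukocytes, nerve and muscle, MBP was above the filter, and their median signal was 10.4 to 31.2 in IgG and 14.98 to 24.0 in eIF4E.

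The first comparison asked which members read higher with eIF4E than with IgG. Each array had a trimmed mean of 500.2, so a higher signal is relative to the other probe sets of its array. It is not an amount of recovered RNA. As the mean of both treatments, H1-10 was 3.32-fold higher in eIF4E precipitates. H2AZ2 was 2.22-fold higher by the probe set brightest over all 12 arrays, but not by its others. In the IgG arrays alone another H2AZ2 probe set was brighter. H2AZ1, MACROH2A1 and H3-3A did not pass with the probe set used for each. Another probe set of H2AZ1 and another of MACROH2A1 were called higher when tested by themselves, as given below. The only probe set of H3-3A alone was dim, at 54.5 to 102. By limma with Benjamini-Hochberg adjustment at 0.05 and 1 probe set for each gene, 2 of the 5 members in the test were higher and 0 lower, with the deposited signals and equally after quantile normalization or median centring. Over all 7178 genes, 70.7% passed, 32.5% as higher and 38.2% as lower, so that a call was the common outcome of this comparison. H1-10 and H2AZ2 also passed in untreated cells, where 58.9% of genes did, and in irradiated cells, where 59.5% did. The median difference of the 5 members was 0.03 on the scale of log2(signal + 16), against -0.07 over all genes.

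**Figure D1:**
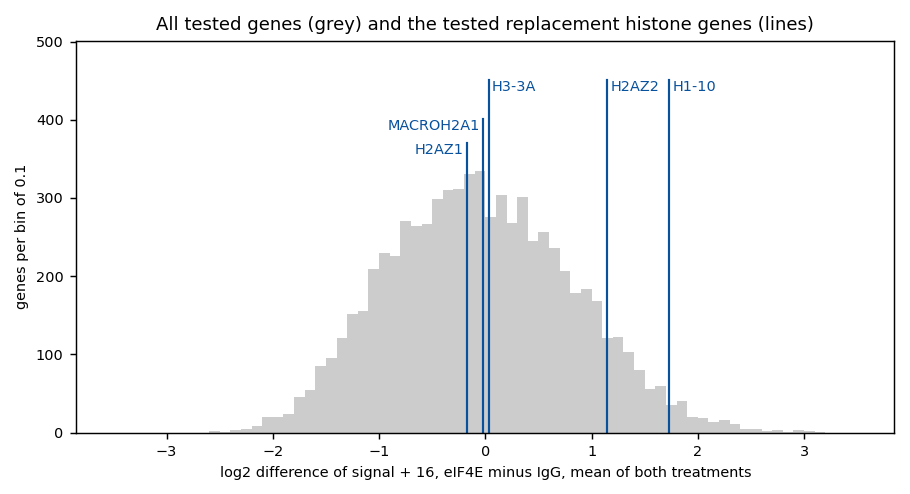
Histogram of the log2 difference of signal + 16, eIF4E minus IgG as the mean of both treatments, over the 7178 tested genes (grey bars, genes in each bin of 0.1), with a blue line at each tested replacement histone gene. H1-10 at 1.73 and H2AZ2 at 1.15 lie in the right flank, and H2AZ1 at -0.18, MACROH2A1 at -0.02 and H3-3A at 0.03 lie near the centre.

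Each probe set was also tested by itself, together with all 11809 probe sets above the filter. Of the 18 probe sets of the members, 5 were higher and 3 lower in eIF4E, beside 69.6% of all probe sets that passed in either direction, 31.3% as higher and 38.4% as lower. The 5 higher were those of H1-10, 1 each of H2AZ1, H2AZ2 and MACROH2A1, and 1 joint H3.3 probe set; the 3 lower were 2 of H2AZ2 and 1 joint H3.3 probe set. In untreated cells 5 were higher and 3 lower (57.5% of all probe sets passed) and in irradiated cells 5 were higher and 2 lower (57.9%). In 5 of the 18 all 6 eIF4E arrays lay above all 6 IgG arrays and in 2 all lay below, beside 48.4% of all probe sets in either direction. Members with several probe sets therefore did not give 1 answer each, and they are described probe set by probe set below.

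**Figure D2:**
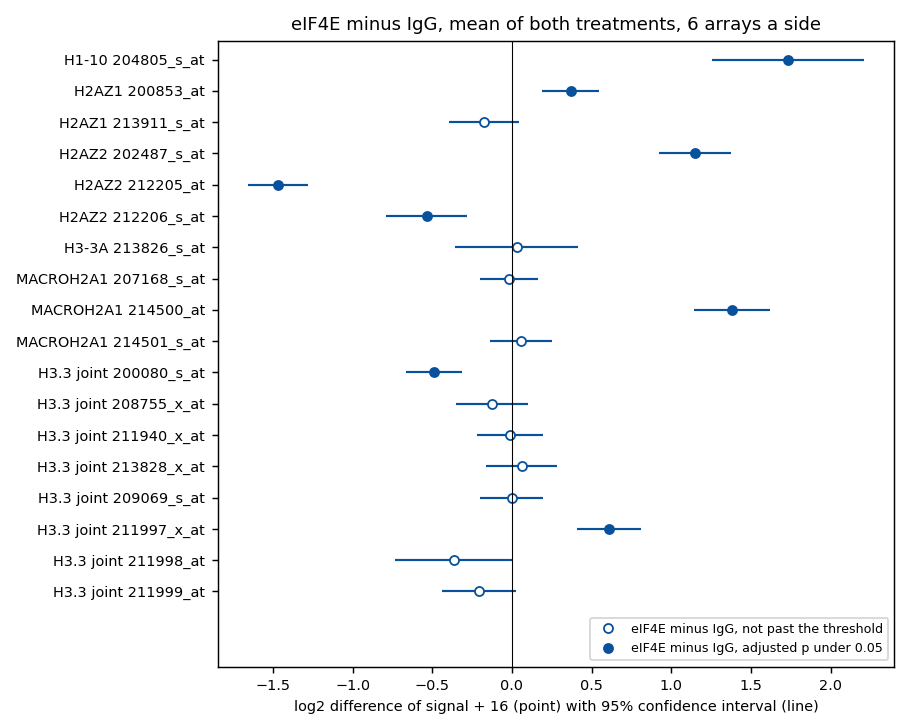
Log2 difference of signal + 16, eIF4E minus IgG as the mean of both treatments with 6 arrays a side (points), with its 95% confidence interval (lines), for the 18 probe sets. Filled points passed the adjusted threshold of 0.05: 5 lie right of 0, up to 1.73 for H1-10, and 3 lie left of it, down to -1.47 for 212205_at of H2AZ2.

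H1-10, the linker histone, had 1 probe set, 204805_s_at. Its signals in arrays 1, 2 and 3 were 245, 668 and 357 in untreated IgG, 321, 648 and 292 in irradiated IgG, 1074, 1592 and 1719.8 in untreated eIF4E, and 1044, 1479 and 1252 in irradiated eIF4E. Every eIF4E array was above every IgG array, and within each IgG group array 2 stood above the other two. The group means were 423 ± 219.6 and 420.2 ± 198 in untreated and irradiated IgG and 1462 ± 342 and 1258 ± 218 in untreated and irradiated eIF4E (SD, n = 3 each). The difference was 1.73 ± 0.23 (SE, 6 arrays a side, adjusted p = 3.37e-06) as the mean of both treatments, 1.84 ± 0.32 (adjusted p = 0.00012) in untreated cells and 1.62 ± 0.32 (adjusted p = 0.000369) in irradiated cells. A bulk precipitate pools all its cells, so differences between single cells were not measured.

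H2AZ2, the less studied of the H2A.Z genes, had 3 probe sets, which moved in opposite directions. The probe set that represented the gene, 202487_s_at, read 4226, 4680.4 and 4258 in untreated IgG, 3746, 4072 and 5258 in irradiated IgG, 11639, 8463 and 9057 in untreated eIF4E, and 9775, 9169 and 10129.6 in irradiated eIF4E. All 6 eIF4E arrays were above all 6 IgG arrays. The gene test gave 1.15 ± 0.10 (SE, adjusted p = 6.09e-08) as the mean of both treatments, 1.13 ± 0.15 (adjusted p = 7.99e-06) in untreated cells and 1.16 ± 0.15 (adjusted p = 6.21e-06) in irradiated cells.

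For 212205_at of H2AZ2 the order was turned. It read 6579.7, 6705 and 7093 in untreated IgG, 5242, 5996 and 6427 in irradiated IgG, 2253, 2315 and 2178 in untreated eIF4E, and 2353, 2468 and 2089.8 in irradiated eIF4E. Here all 6 eIF4E arrays lay below all 6 IgG arrays, and the probe set fit gave -1.47 ± 0.09 (SE, adjusted p = 9.96e-10), with -1.59 ± 0.13 in untreated and -1.35 ± 0.13 in irradiated cells.
The dimmer 212206_s_at, which shares its source sequence in the annotation with 212205_at, read 928, 924 and 1031 in untreated IgG, 555, 852 and 756 in irradiated IgG, 639, 496 and 582 in untreated eIF4E, and 533, 629 and 526 in irradiated eIF4E. The untreated groups did not overlap, while array 1 of irradiated IgG lay among the eIF4E arrays. Its difference was -0.53 ± 0.12 (SE, adjusted p = 0.000832) as the mean of both treatments and -0.74 ± 0.17 (adjusted p = 0.00152) in untreated cells, and in irradiated cells it was -0.33 ± 0.17 and missed the threshold (adjusted p = 0.106). The change between treatments was itself tested and did not pass (0.40 ± 0.24, adjusted p = 0.999).

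The call of H2AZ2 as higher therefore rested on the choice of probe set. That choice used the mean log2 signal over all 12 arrays, the eIF4E arrays among them. In IgG 212205_at was the brighter, at 5242 to 7093 beside 3746 to 5258 for 202487_s_at. With the mean of the 3 H2AZ2 probe sets the direction turned, to -0.28 (adjusted p = 0.0104) as the mean of both treatments. It was -0.40 (adjusted p = 0.0145) in untreated and -0.17 (adjusted p = 0.263) in irradiated cells. The differences of the H2AZ2 probe sets spanned 2.62 log2 units, and 99.5% of the 2317 genes with more than 1 probe set above the filter spanned less. Opposite calls were found in 234 (16.5%) of the 1418 genes with more than 1 called probe set. The sources used here do not say where along its messenger each probe set lies. The 3′ to 5′ ratios of actin and the Alu signal moved with the antibody as given above, and their part in these differences was not tested.

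H2AZ1, the gene of the major H2A.Z form, had 2 bright probe sets. For 213911_s_at, which represented the gene, the signals were 12770.3, 12812 and 10315 in untreated IgG, 15656, 11667 and 10641 in irradiated IgG, 10999, 9531 and 10295 in untreated eIF4E, and 11795, 11026 and 11202 in irradiated eIF4E. The groups overlapped, array 1 of irradiated IgG being the brightest of the 12, and the gene test gave -0.18 ± 0.10 (SE, adjusted p = 0.134), with a 95% interval of -0.39 to 0.04.
The other, 200853_at, read 7887, 7293 and 8048 in untreated IgG, 8430.0, 9389 and 7606 in irradiated IgG, 10795, 10056 and 10587 in untreated eIF4E, and 10350.3, 10242 and 10584 in irradiated eIF4E. Here the 6 eIF4E arrays were above the 6 IgG arrays by a small step, 1.29-fold, with a difference of 0.37 ± 0.08 (SE, adjusted p = 0.000896 in the probe set fit). It passed in untreated cells at 0.44 ± 0.12 (adjusted p = 0.00476) and in irradiated cells at 0.30 ± 0.12 (adjusted p = 0.0394). H2AZ1 probe sets spanned 0.54, less than the median of 0.59 over genes with several probe sets.

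A factor that multiplies a whole array cancels in the ratio of H2AZ1 to H2AZ2, apart from the added 16. Its level has no meaning across probe sets, and its change between antibodies holds for the pair of probe sets used, not for the genes as such. With the representing probe sets, the log2 ratio was 1.48 ± 0.35 in the 6 IgG arrays, from 1.01 to 2.06, and 0.16 ± 0.13 in the 6 eIF4E arrays, from -0.08 to 0.27 (SD). The groups did not overlap, and the difference of -1.32 gave p = 0.00216 in an exact two-sided permutation test over 924 splits, which is the smallest p they allow. It was -1.18 after quantile normalization, which is not such a factor. Of the other 5 pairs of an H2AZ1 and an H2AZ2 probe set, 200853_at over 202487_s_at gave -0.78 and the other 4 gave ratios that were higher in eIF4E, from 0.36 with 213911_s_at over 212206_s_at to 1.83 with 200853_at over 212205_at. Adjusted over all 6 pairs by Benjamini-Hochberg, the exact p was 0.0026 for 5 of them, in both directions, and 0.13 for 213911_s_at over 212206_s_at. The ratio was lower in eIF4E with the H2AZ2 probe set that was higher there, and higher with the H2AZ2 probe sets that were lower.

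MACROH2A1 had 3 probe sets, of which 2 bright ones gave no call and the dimmest gave a rise. The representing probe set 207168_s_at read 8459, 8670.0 and 9269.8 in untreated IgG, 8243, 8909 and 7937 in irradiated IgG, 8213, 7545 and 8908 in untreated eIF4E, and 7973, 9163 and 9139 in irradiated eIF4E. The 4 groups overlapped, and the gene test gave -0.02 ± 0.08 (SE, adjusted p = 0.86), with a 95% interval of -0.19 to 0.16. For 214501_s_at, with signals of 4298 to 5144 in IgG and 4472 to 5641 in eIF4E, the difference was 0.06 ± 0.09 (adjusted p = 0.596).

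The third, 214500_at, read 616, 494 and 521 in untreated IgG, 439, 596 and 453 in irradiated IgG, 1363, 1449 and 1257 in untreated eIF4E, and 1594, 1273 and 1309 in irradiated eIF4E. All 6 eIF4E arrays were above all 6 IgG arrays. The difference was 1.38 ± 0.11 (SE, adjusted p = 1.8e-08), or 2.61-fold, with 1.30 ± 0.16 in untreated and 1.47 ± 0.16 in irradiated cells. In the annotation it shares its source sequence with 214501_s_at, which did not pass. MACROH2A1 is known to be spliced into several forms, and the annotation does not say which of them each probe set detects. With the mean of its 3 probe sets MACROH2A1 was called higher, at 0.47 (adjusted p = 4.07e-05), and its probe sets spanned 1.40, wider than in 89.5% of genes with several.

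**Figure D3:**
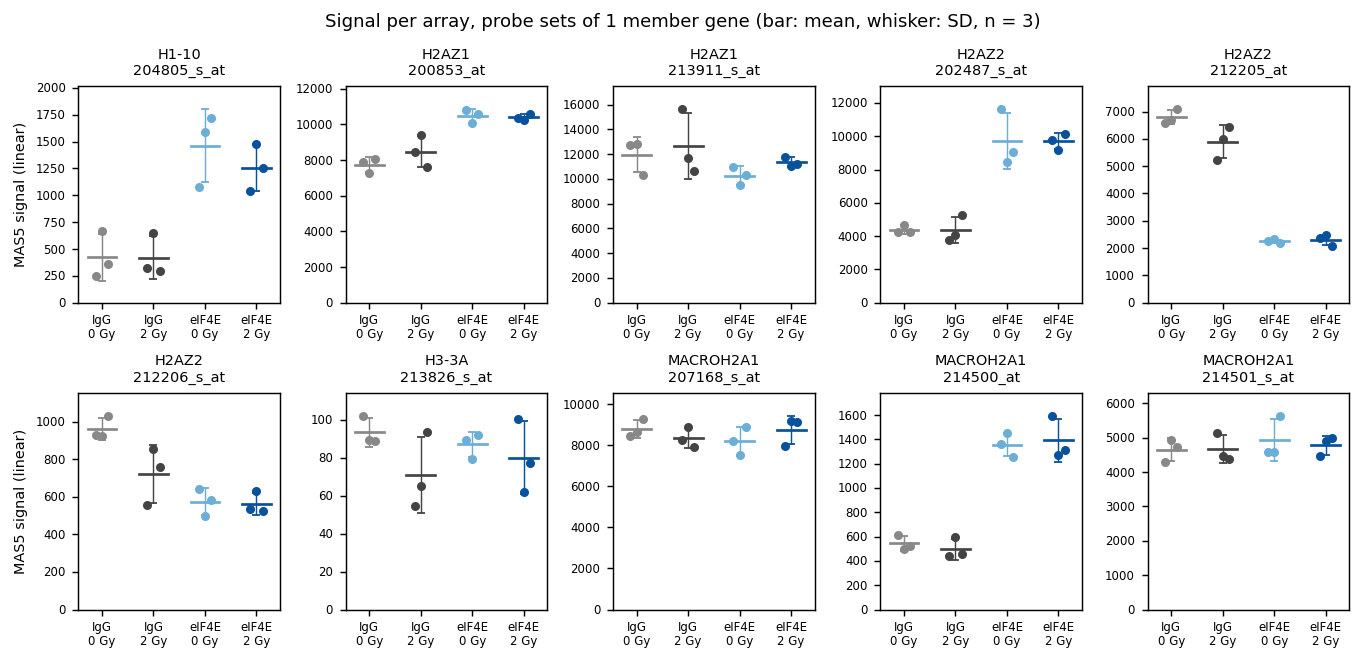
MAS5 signal on a linear scale from 0 for the 10 probe sets of 1 member gene, by group: IgG and eIF4E from untreated (0 Gy) and irradiated (2 Gy) cells. Points are arrays, bars group means and whiskers SD (n = 3). The eIF4E arrays stand above the IgG arrays for H1-10, 200853_at, 202487_s_at and 214500_at and below them for 212205_at.

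Histone H3.3 is encoded by H3-3A and H3-3B. The probe set of H3-3A alone, 213826_s_at, was dim, with signals of 102, 89.2 and 89.0 in untreated IgG, 54.5, 64.9 and 93.4 in irradiated IgG, 89.6, 79.5 and 92.0 in untreated eIF4E, and 100.3, 62.2 and 77.4 in irradiated eIF4E. The groups overlapped, and the difference was 0.03 ± 0.18 (SE, adjusted p = 0.889), with a 95% interval of -0.36 to 0.42. Its signals lay near the filter on dim genes, which stood at 57.4.

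The 8 joint probe sets showed no common direction: 1 was higher, 1 lower and 6 did not pass. The lower was 200080_s_at, with 17521, 17995 and 15843 in untreated IgG, 17619, 16195 and 16839 in irradiated IgG, 12925, 11016 and 11968 in untreated eIF4E, and 13142, 11677 and 11867 in irradiated eIF4E. All eIF4E arrays lay below all IgG arrays, and the difference was -0.49 ± 0.08 (SE, adjusted p = 5.92e-05), 1.41-fold lower.
The higher was 211997_x_at, whose source sequence in the annotation is an H3-3B transcript although the annotation lists both genes. It read 8233, 6125 and 7061 in untreated IgG, 6724, 7464 and 7544 in irradiated IgG, 11651, 9817 and 10610.0 in untreated eIF4E, and 12279.7, 10504 and 10940.5 in irradiated eIF4E. All eIF4E arrays lay above all IgG arrays, and the difference was 0.61 ± 0.10 (SE, adjusted p = 2.46e-05), 1.53-fold higher.

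Each of these passed for both treatments too, at -0.52 and -0.47 for 200080_s_at and at 0.59 and 0.63 for 211997_x_at. The other joint probe sets were 208755_x_at at -0.12 ± 0.11, 211940_x_at at -0.01 ± 0.10, 213828_x_at at 0.06 ± 0.11, 209069_s_at at -0.00144 ± 0.09, 211999_at at -0.21 ± 0.11 and the dim 211998_at at -0.36 ± 0.18 (SE). The first 3, with signals of 12749 to 22429, changed with the scaling, and the cause was not tested. After quantile normalization 208755_x_at at 0.38 (adjusted p = 5.36e-05), 211940_x_at at 0.41 (adjusted p = 9.41e-05) and 213828_x_at at 0.67 (adjusted p = 5.81e-08) were called higher, while 200080_s_at remained lower and 211997_x_at higher. Whether H3-3A and H3-3B messengers differed could not be tested, since no probe set reports H3-3B alone.

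**Figure D4:**
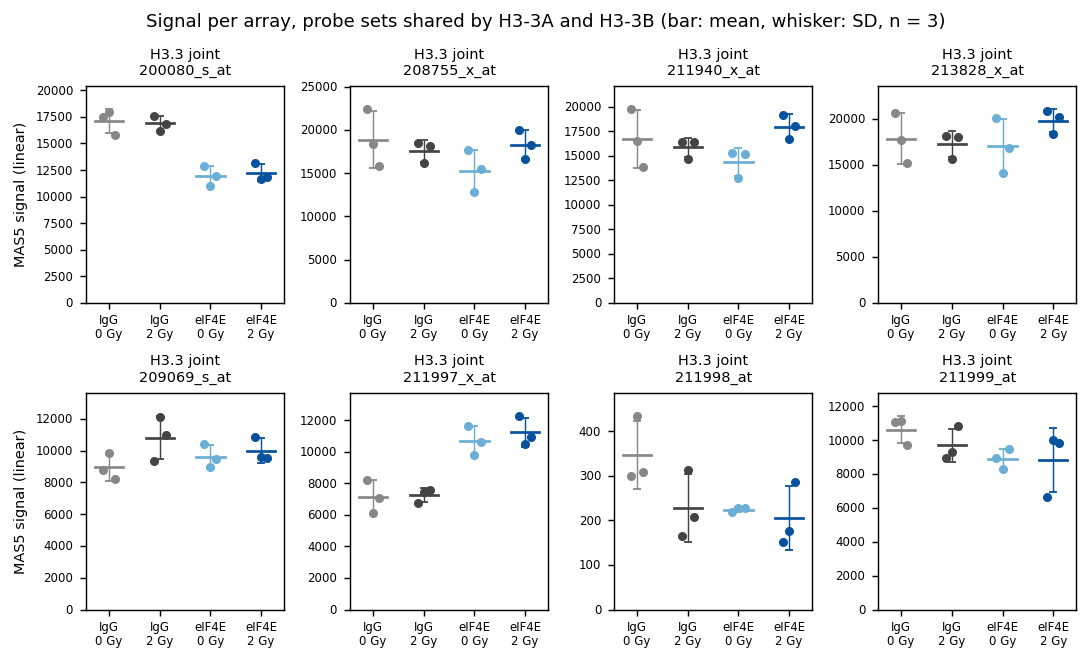
MAS5 signal on a linear scale from 0 for the 8 probe sets shared by H3-3A and H3-3B, by group as labelled. Points are arrays, bars group means and whiskers SD (n = 3). For 200080_s_at the eIF4E arrays lie below the IgG arrays, for 211997_x_at they lie above, and for the other 6 the antibodies overlap.

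The second comparison asked whether 2 Gy changed the signals of the members at 6 h. Of the 5 tested members 0 passed in eIF4E and 0 in IgG, as was so for all genes (0.0% in each), and 0 passed in the difference of both irradiation effects (0.0% of genes). At an unadjusted p under 0.05 the counts over all genes were 82 in eIF4E, 475 in IgG and 216 in the difference, with 0 members among them in each case. The 95% intervals of the 5 members lay between -0.87 and 0.47 in eIF4E and between -0.90 and 0.69 in IgG, and their widths differed between members. The narrowest were those of MACROH2A1 (-0.16 to 0.34) and H2AZ1 (-0.16 to 0.45) in eIF4E.

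Over the 18 probe sets, 0 were called in eIF4E, 0 in IgG and 0 in the difference, as for all probe sets (0.0% each). The joint H3.3 probe set 211940_x_at read 15246, 12749 and 15129 in untreated eIF4E and 19197, 16717 and 18017 in irradiated eIF4E, without overlap, and its difference of 0.32 ± 0.14 had an unadjusted p of 0.0331 (adjusted p = 1). The eIF4E arrays deviated together by replicate number, and 6 of the 18 probe sets were brighter after irradiation in 3 of 3 pairs. They were 208755_x_at (0.27), 209069_s_at (0.06), 211940_x_at, 211997_x_at (0.07) and 213828_x_at (0.23) among the joint ones and 213911_s_at of H2AZ1. The joint ones are annotated to the same H3.3 genes, so they are not separate evidence. The linker histone probe set 204805_s_at went the other way, being dimmer in 3 of 3 pairs (-0.20). No share over all probe sets was taken for this pattern, so no more is read from the count. With the replicate number as a block the unadjusted p was 0.0162 for 211940_x_at, 0.0383 for 208755_x_at and 0.0723 for 213828_x_at, and 0 of the 11809 probe sets passed after adjustment, 270 having an unadjusted p under 0.05. In the same arrays 213911_s_at of H2AZ1 also did not overlap, at 0.14 ± 0.15, and in IgG the untreated and irradiated arrays of 212205_at (-0.21 ± 0.13) and 212206_s_at (-0.43 ± 0.17, unadjusted p = 0.023) of H2AZ2 did not overlap. These were 2 of 18 probe sets in each antibody, beside 9.45% of all probe sets in eIF4E and 9.16% in IgG. The joint 211998_at had an unadjusted p of 0.0286 in IgG, at -0.60 ± 0.25, with overlapping arrays.

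**Figure D5:**
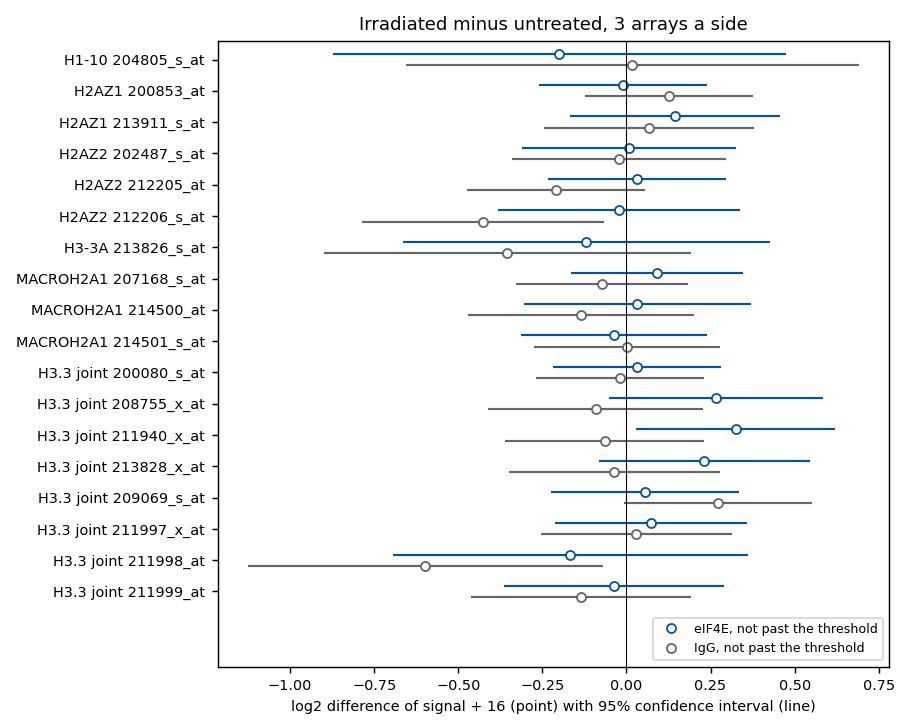
Log2 difference of signal + 16, irradiated minus untreated with 3 arrays a side (points), with its 95% confidence interval (lines), for the 18 probe sets in eIF4E (blue) and IgG (grey). All points are open, as 0 passed the adjusted threshold. The widest intervals are those of H1-10 and of the dim 213826_s_at and 211998_at.

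Other histone genes gave a context for the members. Of 14 other variants, 6 had their own probe set and 2 were bright enough to be tested. Both were higher in eIF4E, beside 32.5% of all tested genes. CENPA, the centromeric H3 variant, had 1 probe set and rose by 1.97 ± 0.12 (SE, adjusted p = 9.28e-10), from 359 ± 37.5 in untreated IgG to 1495 ± 203 in untreated eIF4E (SD, n = 3). H2AX, the H2A variant phosphorylated at DNA breaks, rose by 0.88 ± 0.10 (adjusted p = 7.49e-07), from 5496 ± 489.9 to 9687 ± 1034. Its 3 probe sets differed in size, at 0.88, 2.16 and 0.04, and the last did not pass. Of 39 replication-dependent histones that had their own probe set, 13 were above the filter. 4 of these 13 (H2AC4, H2AC14, H2AC17 and H3C2) lay under it in the IgG arrays alone and entered through eIF4E, so that their direction was in part set by the filter. Of the 9 above it with both antibodies 8 were higher and 0 lower, beside 2236 higher and 2653 lower of 6882 genes of any kind above it with both. No more is read from this count. H1-2, a linker histone, rose by 1.83 ± 0.10. H2AC14, a core H2A gene, read 52.9 ± 64.5 in untreated IgG, under the filter, and 223 ± 51.2 in untreated eIF4E (SD, n = 3). H2AC4 at 0.22, which turned to -0.34 without all arrays numbered 1 and to -0.04 without array 1 of irradiated IgG, and H2BC21 at -0.09, which turned to 0.02 after quantile normalization and 0.04 after centring, did not pass.

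The factors that place and remove H2A.Z did not move one way: 9 of the 22 in the test were higher and 8 were lower. These shares were near the 32.5% and 38.2% over all genes, and the median was 0.12. Of the higher, 1 lay under the filter in IgG and entered through eIF4E. Among the 21 above the filter with both antibodies 8 were higher and 8 were lower. MCRS1 and ZNHIT1, subunits of the INO80 and SRCAP remodelling complexes, rose by 2.06 ± 0.15 and 1.40 ± 0.13 (SE). ANP32E, the chaperone that removes H2A.Z from chromatin, fell by 1.65 ± 0.11, from 7579 ± 807 in untreated IgG to 2189 ± 101 in untreated eIF4E (SD, n = 3). TRRAP, a scaffold of the TIP60 complex, stood at -1.03 ± 0.21 but missed the threshold with the mean of its probe sets (-0.44, adjusted p = 0.102). Of 9 tested H3.3 chaperones, 3 were higher and 4 were lower, again near the shares over all genes, and the median was -0.13. ASF1B and ASF1A, which carry H3 and H4, rose by 1.24 ± 0.13 and 1.13 ± 0.14, although another ASF1A probe set stood at -0.00709. ATRX, which with DAXX places H3.3 in heterochromatin, fell by 1.73 ± 0.14, or by 0.98 with the mean of its probe sets, and UBN1, a subunit of the HIRA complex, fell by 1.31 ± 0.11.

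General histone chaperones had 1 higher and 16 lower of 22 tested, beside 32.5% higher and 38.2% lower over all genes. Their median was -0.62 beside -0.07. Of the lower, 1 lay under the filter in eIF4E and entered through IgG, so that its direction was in part set by the filter. Among the 21 above the filter with both antibodies 1 was higher and 15 were lower, beside 2236 and 2653 of 6882 over all genes. SET and NCL, abundant acidic chaperones, fell by 1.78 ± 0.11 and 1.70 ± 0.09 (SE); another SET probe set fell by 0.32, and the mean of both by 1.05. MIS18A, which is needed for CENPA loading, rose by 1.02 ± 0.10. CHAF1B, a subunit of the CAF-1 complex, stood at 0.44 ± 0.21 and did not pass (adjusted p = 0.0686). It passed in 6 of 22 alternatives, with the replicate block (adjusted p = 0.0479), quantile normalization (0.58, adjusted p = 0.0164) and median centring (0.57, adjusted p = 0.0178), and without array 2 of untreated IgG (0.55), array 2 of irradiated IgG (0.61) or array 1 of irradiated eIF4E (0.53). Median centring moved the median of all genes from -0.07 to 0.06, and with it the general chaperones had 3 higher and 13 lower and the H2A.Z factors 11 higher and 8 lower. The lists were compared with all genes by counts and medians only.

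For each tested member the genes most like it were taken by Pearson's r of log2(signal + 16) over the 12 arrays, which share the antibody contrast. The pattern of H2AZ2 was closest to TXNDC9 (r = 0.992) and ARL3 (r = 0.991), which rose by 1.17 ± 0.11 and 1.11 ± 0.11 (SE), ARL3 by 0.50 with the mean of its probe sets. That of H1-10 was closest to CST7 (r = 0.989) and GSTM4 (r = 0.98), which rose by 1.61 ± 0.21 and 2.89 ± 0.38, GSTM4 by 2.08 with the mean of its probe sets and by 2.11 with 64 in place of 16 added. H2AZ1 was closest to TUBB4B (r = 0.922) and MRM3 (r = 0.917), at -0.41 ± 0.13 and -0.38 ± 0.14, both of which lost their call after median centring (adjusted p = 0.0957 and 0.148); MRM3 lost it in 7 of 22 alternatives, 4 of which left out a single array (array 2 of untreated IgG, array 1 of irradiated IgG, or array 2 or 3 of untreated eIF4E), at -0.27 to -0.36. MACROH2A1 reached 0.81 with VAPA and 0.764 with ZDHHC14, and H3-3A reached 0.809 with VAMP7 and 0.808 with ZNF330. None of these 4 passed in the antibody comparison with its representing probe set, but another ZNF330 probe set rose by 1.67, and the mean of its probe sets passed at 0.82 (adjusted p = 1.57e-05). The correlations describe these arrays and carry no test.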

How the data were processed

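The authors deposited a linear intensity for each probe set and array, made with MAS5 per the submitters' processing notes; version and genome build are not given in the sources used here. Each array had a trimmed mean of 500.2 (2% left out at each end), so signals are relative within an array. Signals were used as deposited. Of 22277 probe sets, 62 were controls, 19064 had 1 gene, 1043 several and 2108 none. Each gene was represented by its probe set with the highest mean log2 signal over the 12 arrays of both antibodies. An _x_at probe set was used only for want of another. The test kept genes above a signal of 57.4, the 40th percentile.

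Log2(signal + 16) was modelled by 4 group means over 12 arrays in limma 3.58.1 (R 4.3.3; lmFit, then eBayes with its trend option), and p-values were adjusted by Benjamini-Hochberg over all 7178 genes, or over 11809 probe sets in a separate fit, at 0.05. The added 16 makes changes of dim genes look smaller. Errors are SE for differences and SD for signals. The H2AZ1 to H2AZ2 ratio was tested by exact permutation; the H3-3A to H3-3B ratio could not be computed. The fit was tested on simulated data. The number of arrays limits the precision.

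Members and gene lists were chosen with earlier results of these data known. Named genes are the members, H2AX, CENPA, the 2 highest and 2 lowest tested genes of each other list and the 2 genes most like each member; 1 further gene of the rule is not reported here. Of the marker lists, CD44 (-2.09), AXL (-1.40), ANXA1 (0.33), LGALS1 (0.13), GATA3 (-0.64) and MBP (-1.08) were named by this rule. CD44 and AXL each also had a called probe set in the other direction (0.45 and 0.44); with the mean of probe sets CD44 was -0.63, AXL -0.48 and MBP -0.23 (adjusted p = 0.139), and LGALS1 was called at 0.34 (adjusted p = 0.0278) by quantile normalization and at 0.31 (adjusted p = 0.00951) when arrays numbered 1 were omitted. The markers of this line had 1 gene higher and 5 lower of 7 tested, beside 32.5% higher and 38.2% lower over all genes. Replicate numbers were checked as a pairing by how arrays of a number deviated together from their groups. Between the 2 eIF4E groups the correlation was 0.374 for number 1, 0.208 for number 2 and 0.181 for number 3. So these arrays were taken as paired, from the data and not from the labels. Every other pair of groups, 5 in all, had a number under 0.1. The main fit did not use the pairing. The replicate block gave each number a common effect in all 12 arrays, IgG included, so it is not a paired test of eIF4E alone. The alternatives changed the pseudocount (1 or 64), the filter (none or the 60th percentile), the scaling (quantile normalization, median centring), the variance trend (none), the block (replicate number), the arrays fitted (the compared groups, or an array omitted) and the value of a gene (its probe set mean).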

Additional observations from a re-analysis of the deposited data

How the results depend on the processing

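H1-10 kept its call as higher in eIF4E in 68 of 68 alternatives over the 3 antibody comparisons and H2AZ2 in 65 of 68. The other 3 used the mean of the H2AZ2 probe sets, while the 65 all used 202487_s_at. The 65 therefore do not bear on the choice of probe set. Of 674 alternative values of members, 619 kept their direction and side of the threshold. Of the 54 that turned, 49 had neither value past the threshold. With the mean of probe sets, H2AZ1 stood at 0.11 in untreated cells, 0.080 in irradiated cells, 0.096 as their mean and -0.031 in the difference of irradiation effects. H2AZ2 stood at -0.40, -0.17 and -0.28 for the 3 antibody comparisons. MACROH2A1 stood at 0.43 (adjusted p = 0.00296) in untreated cells, 0.52 (adjusted p = 0.000624) in irradiated cells and 0.47 as the mean. The log2 ratio of H2AZ1 to H2AZ2 then changed by 0.38, eIF4E minus IgG (exact permutation p = 0.0216). With other probe sets, chosen after seeing the data, this change was 1.83, 0.90 and 1.29 (each exact p = 0.00216) and 0.36 (exact p = 0.13). With 200853_at over 202487_s_at it was -0.78 (exact p = 0.00216), in the direction of the main result.

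Quantile normalization turned H3-3A in untreated cells to 0.030, MACROH2A1 in irradiated cells to -0.00960, H2AZ2 to -0.074 for irradiation in eIF4E and -0.046 in the difference, and H1-10 to -0.00586 for irradiation in IgG. Median centring turned H3-3A (0.031) and MACROH2A1 (0.018) in untreated cells, H2AZ1 in irradiated cells (0.00859), MACROH2A1 as the mean (0.12) and H1-10 for irradiation in IgG (-0.00478). Without all arrays numbered 1, H3-3A was -0.14 in irradiated cells, -0.094 as the mean and -0.090 in the difference, and for irradiation in IgG H1-10 was -0.16, H2AZ1 -0.045 and H2AZ2 0.052. The causes were not tested.

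Leaving out 1 array at a time gave ranges for the antibody difference of -0.25 to 0.025 for H2AZ1 in irradiated cells, -0.000488 to 0.33 for H3-3A there, -0.044 to 0.12 for H3-3A and -0.047 to 0.016 for MACROH2A1 as the mean. For irradiation in IgG they were -0.33 to 0.40 for H1-10, -0.096 to 0.18 for H2AZ1 and -0.17 to 0.078 for H2AZ2, and in eIF4E -0.084 to 0.15 for H2AZ2 and -0.27 to 0.019 for H3-3A. For the difference they were -0.59 to 0.13 for H1-10, -0.039 to 0.24 for H2AZ1 and -0.069 to 0.17 for H2AZ2. None of these was past the threshold.

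The replicate block changed no call of a member gene and kept the count of members called at 2 of 5. With eIF4E and IgG labels permuted within replicate numbers, the ratio difference stayed at -1.32 (exact permutation p = 0.00926, the smallest these splits allow). Both treat all 12 arrays as sharing their replicate number, while the check took only the eIF4E groups as paired. Among the joint H3.3 probe sets, 211998_at passed with the block (-0.36, adjusted p = 0.0485), without array 1 of irradiated IgG (-0.46, adjusted p = 0.0269) and without array 3 of irradiated eIF4E (-0.49, adjusted p = 0.0191). The H3-3A to H3-3B ratio was not run, since no probe set reports H3-3B alone. A fit of only the groups compared was not run for the mean and the difference, which use all groups.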
